A study of Mus musculus with 6 samples.

Results

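YAP, its paralogue TAZ, the DNA-binding factor TEAD1 and a set of their target genes were followed in mouse liver RNA. The group held 10 genes of the 56350 in the table of counts, taken by name as members of the pathway, with earlier results of these data known: Yap1, Wwtr1 (which encodes TAZ), Tead1, Ajuba, Ccn1, Ccn2, Crim1, Ankrd1, Amotl2 and Axl. All 10 passed the filter on low counts, Ankrd1 only through the HepKO libraries, where it was high. The samples were 3 livers labelled Atg14 hepatocyte-specific knockout (HepKO) and 3 labelled wild-type (WT), each measured as 1 polyA RNA library from whole liver tissue. Atg14 is the component that directs the class III PI3-kinase to sites where autophagosomes form. The labels limit its loss to hepatocytes, so other liver cells in the tissue should keep the gene. They name no Cre line, age, sex, strain or diet for either group. They also do not say that each liver was a different animal, and the p-values therefore reflect only how far these 6 libraries spread.

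YAP and TAZ are transcriptional coactivators that do not bind DNA themselves and reach their target genes through TEAD factors. The Hippo kinase cascade phosphorylates both proteins, which keeps them in the cytoplasm or sends them to degradation, so the level of their mRNA does not give the amount of protein in the nucleus. In the liver YAP is known for its control of organ size and for higher activity in bile duct cells than in hepatocytes, and loss of a core autophagy gene from mouse liver is known to raise YAP protein. Only mRNA was measured here.

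The consensus core of TEAD binding is GGAATG, read as CATTCC on the opposite strand. Promoter windows of 250 bases before to 50 bases after the annotated start (RefSeq, GRCm38.p6) were at hand for 8 of the 10 genes, while none was matched for Tead1 and Ccn2. Each of the 8 held the core at least once on either strand, 10 matches in all, whereas 14.7% of the 32851 promoter windows in the same table held it. The genes were chosen as members of the pathway and its targets, so this contrast is not a test. Of the 2 windows of Wwtr1 only the most upstream was searched, while the share over all windows counts each one. The AP-1 motif TGANTCA, searched on both strands, was in none of the 8 and in 7.81% of all windows. The matches are shown with their surroundings because they are the feature the 8 genes shared by sequence. They are written 5′ to 3′ on the strand of the gene, with the core in capitals.
Ajuba, chr14:54577830-54577859, minus strand: cgttgatggataCATTCCacagtgcccctc
Ajuba, chr14:54577808-54577837, minus strand: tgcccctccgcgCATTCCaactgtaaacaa
Ccn1, chr3:145650071-145650100, minus strand: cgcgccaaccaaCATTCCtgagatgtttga
Crim1, chr17:78200157-78200186, plus strand: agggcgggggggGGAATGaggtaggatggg
Ankrd1, chr19:36120037-36120066, minus strand: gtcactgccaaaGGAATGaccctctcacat
Ankrd1, chr19:36119950-36119979, minus strand: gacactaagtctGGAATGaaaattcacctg
Axl, chr7:25788949-25788978, minus strand: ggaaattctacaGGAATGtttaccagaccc
Amotl2, chr9:102717727-102717756, plus strand: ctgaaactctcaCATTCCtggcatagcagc
Yap1, chr9:8004720-8004749, minus strand: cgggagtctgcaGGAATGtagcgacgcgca
Wwtr1, chr3:57576029-57576058, minus strand: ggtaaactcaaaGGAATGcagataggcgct
The matches of Ankrd1 and Amotl2 overlapped exons annotated in GENCODE M21, and the other 7 lay outside annotated exons. A match to these letters is not evidence that TEAD binds there.

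Ajuba and Ccn1 are shown as the members with the highest folds after Ankrd1, whose window overlaps an exon, and the 250 bases before their starts are shown whole. Ajuba carried a pair of cores, starting 186 and 164 bases before its start, and Ccn1 carried a single core starting 103 bases before its start.
Ajuba, chr14:54577662-54577911, minus strand: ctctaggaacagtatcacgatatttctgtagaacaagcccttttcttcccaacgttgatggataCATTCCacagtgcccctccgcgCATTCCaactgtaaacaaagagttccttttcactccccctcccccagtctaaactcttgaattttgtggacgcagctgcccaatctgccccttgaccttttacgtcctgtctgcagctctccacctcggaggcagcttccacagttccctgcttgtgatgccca
Ccn1, chr3:145649986-145650235, minus strand: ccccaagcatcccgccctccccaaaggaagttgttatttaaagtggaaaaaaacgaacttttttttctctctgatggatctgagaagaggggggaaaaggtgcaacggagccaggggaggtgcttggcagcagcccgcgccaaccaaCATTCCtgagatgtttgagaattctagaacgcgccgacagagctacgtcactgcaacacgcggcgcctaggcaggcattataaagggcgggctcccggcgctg

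**Figure D1:**
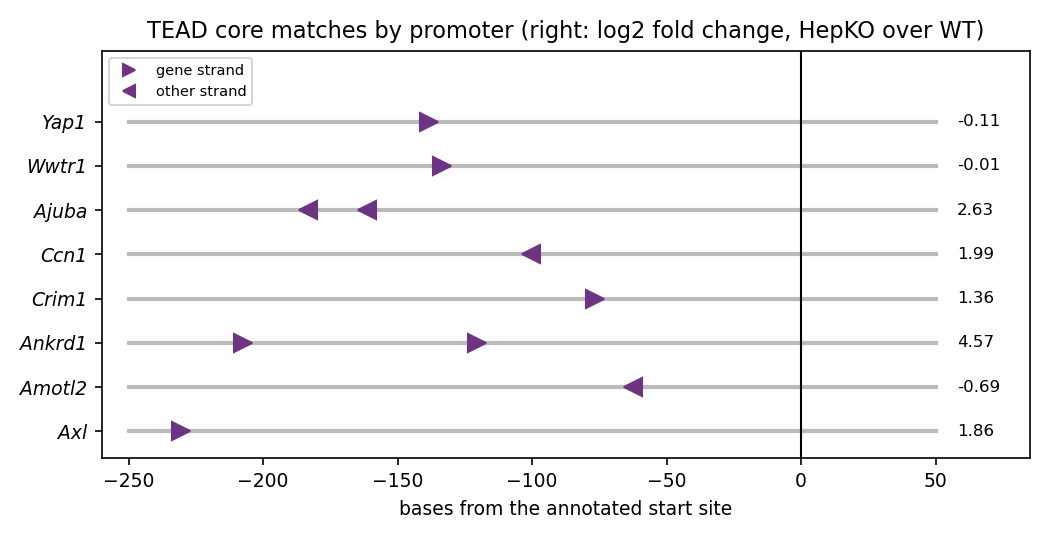
Matches to the TEAD core by distance in bases from the annotated start site (x axis) in the 8 promoter windows at hand, with arrowheads that give the strand of the match and the log2 fold change of each gene (HepKO over WT) at the right. Genes with a match include 5 that were higher in HepKO (Ajuba, Ccn1, Crim1, Ankrd1 and Axl), 1 that was lower (Amotl2) and 2 that were not called (Yap1 and Wwtr1).

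Before the comparison the libraries were checked. Total counts ranged from 33145684 to 48951937 in HepKO and from 35720011 to 41754560 in WT. Atg14 had 329, 379 and 313 counts in HepKO replicates 1 to 3, against 620, 796 and 719 counts in WT replicates 1 to 3 (log2 fold change -1.54 ± 0.16, adjusted p = 4.69e-04, edgeR). HepKO replicate 1 stood apart in its sex-linked genes, with 30377 counts of Xist and 17 summed counts of 4 Y-linked genes, where the other 5 libraries had 2 to 22 and 6130 to 7874 counts. Without that library the same 6 of the 10 genes were called higher and the same 1 lower, and of the 3 that were not called, Wwtr1 changed sign (log2 fold change 0.11, against -0.01 with it). The 8 hepatocyte markers were all called lower in HepKO, beside 18.7% of all tested genes. Summed levels of these markers were 44592 to 55458 CPM in HepKO and 111481 to 132930 CPM in WT. Fewer cells of a type and less RNA per cell cannot be told apart in whole tissue.

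Of the 10 genes, 6 rose in HepKO livers, 1 fell and 3 were not called. Levels are in CPM, a gene's count relative to the total of its library scaled by TMM (the trimmed mean of M-values), and a gene was called by edgeR's quasi-likelihood test at a Benjamini-Hochberg adjusted p under 0.05 over all 16051 tested genes. Over all tested genes 38.2% were called, 19.5% higher and 18.7% lower. The median log2 fold change of the 10 genes was 1.33, beside 0.01 for all tested genes. The groups did not overlap for the same 7 genes, 6 above and 1 below, where 53.5% of all tested genes did not overlap, 27.1% above and 26.4% below. Since no scaling is free of assumptions, the result was set beside one that uses library totals alone, which moved the median of all tested genes to 0.52: then 8 of the 10 were called higher and 0 lower, where 46.4% of all tested genes were called higher and 5.84% lower. On that scale the groups did not overlap for 8 of the 10 genes, all above, where 55.6% of all tested genes lay above and 8.02% below without overlap.

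**Figure D2:**
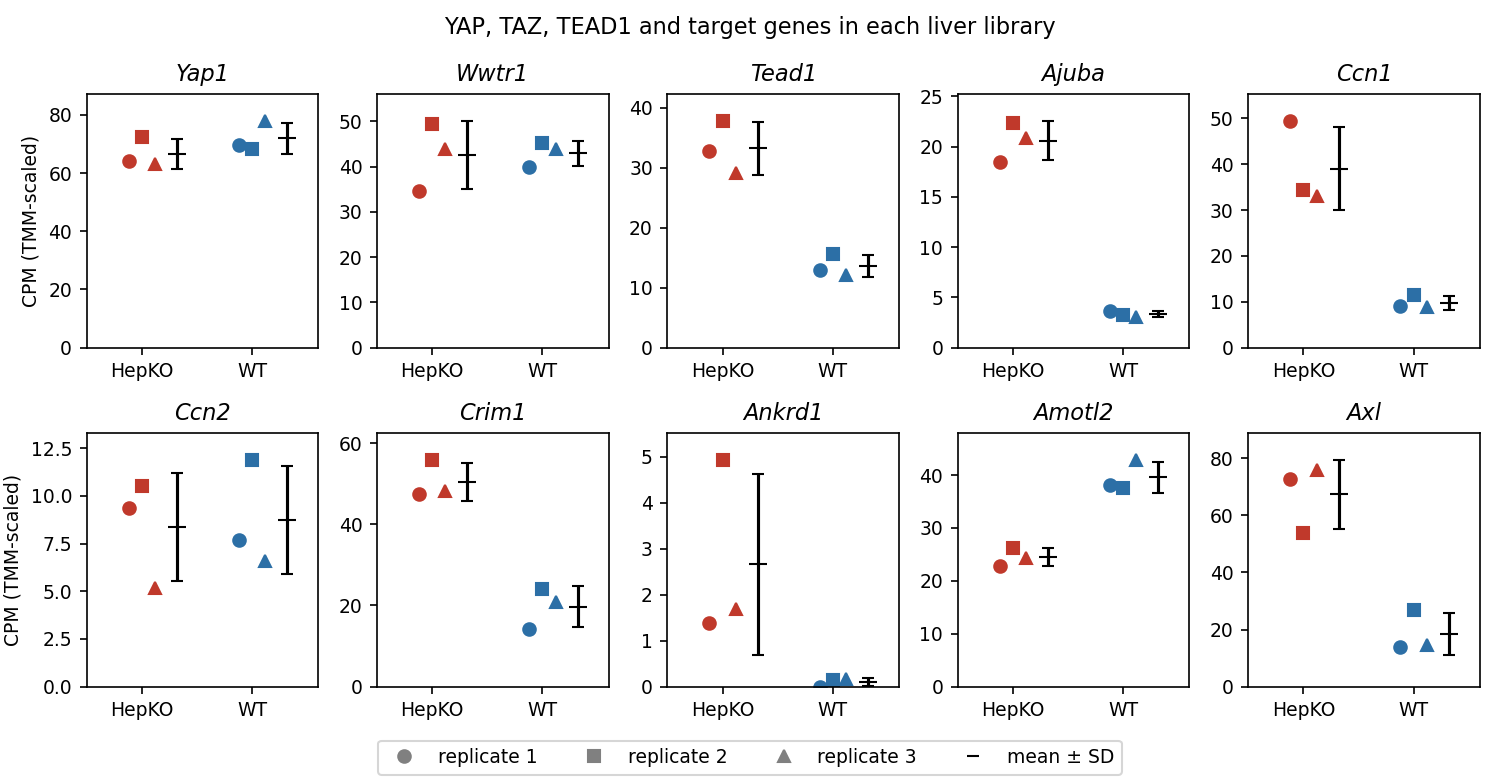
Level of each of the 10 genes (y axis, CPM on TMM-scaled totals, each panel with its own scale from 0) in the 3 HepKO and the 3 WT libraries, with marker shapes for the replicate number and black bars for the mean ± SD of 3 libraries. The HepKO libraries lie above the WT libraries for Tead1, Ajuba, Ccn1, Crim1, Ankrd1 and Axl, below them for Amotl2, and the groups overlap for Yap1, Wwtr1 and Ccn2.

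The coactivator genes themselves were not called. Yap1 (chromosome 9, 7931999 to 8004596, minus strand, GRCm38) had 64.3, 72.4 and 63 CPM in HepKO replicates 1 to 3, against 69.6, 68.4 and 78 CPM in WT replicates 1 to 3. The groups overlapped, with HepKO replicate 2 above 2 of the WT libraries. The log2 fold change was -0.11 ± 0.10 (SE), with a 95% interval of -0.34 to 0.12 and an adjusted p of 0.412 (edgeR). Wwtr1 (chromosome 3, 57455649 to 57575910, minus strand) had 34.6, 49.4 and 44 CPM in HepKO and 39.9, 45.3 and 43.8 CPM in WT. HepKO replicates 1 and 2 were its lowest and highest libraries, so the WT values fell between them. Its log2 fold change was -0.01 ± 0.14, with a 95% interval of -0.33 to 0.31 and an adjusted p of 0.957 (edgeR). On library totals both were called higher, Yap1 with a log2 fold change of 0.40 (adjusted p = 0.0108) and Wwtr1 with 0.50 (adjusted p = 0.0213), values below the median of 0.52 that all tested genes had on that scale.

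Tead1 was higher in every HepKO library. The gene (chromosome 7, 112679318 to 112906807, plus strand) encodes a TEAD factor, which binds DNA and recruits YAP or TAZ. It had 32.7, 37.8 and 29.1 CPM in HepKO, against 12.9, 15.6 and 12.1 CPM in WT. The lowest HepKO library was thus well above the highest WT library. The means were 33.2 ± 4.36 CPM in HepKO and 13.5 ± 1.84 CPM in WT (SD, n = 3 each), a 2.45-fold rise (log2 fold change 1.29 ± 0.14, adjusted p = 5.28e-04, edgeR). None of the 5 tested genes of the list of other TEAD factors and Vgll cofactors was called by edgeR (median log2 fold change 0.38). At an unadjusted p under 0.05 there was 1 higher and 1 lower, and DESeq2 and limma-voom each called 1 higher and 0 lower. Tead2 had 1.7, 1.63 and 0.94 CPM in HepKO and 0.0338, 0.724 and 0.322 CPM in WT (log2 fold change 1.95 ± 0.76, adjusted p = 0.0770, edgeR). With 1 count in WT replicate 1, Tead2 needed the HepKO libraries, where it was high, to pass the filter on low counts. Its groups did not overlap, and it was called without WT replicate 2 (log2 fold change 2.96, adjusted p = 0.0340, edgeR) and by DESeq2 (adjusted p = 0.0271) and limma-voom (adjusted p = 0.0438). Tead2 was not called when any other library was left out (log2 fold change as low as 1.43, adjusted p up to 0.188, edgeR). Tead3 had 6.8 to 7.16 CPM in HepKO and 8.31 to 10 CPM in WT (log2 fold change -0.40 ± 0.14, adjusted p = 0.0620, edgeR). Vgll3, a cofactor that binds TEAD, was below 1 CPM in every library, and Vgll1 and Vgll2 had no counts in any library, too few to test.

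Genes that feed back on the pathway went in opposite directions. Ajuba (chromosome 14, 54567472 to 54577558, minus strand) encodes a LIM-domain protein that binds LATS kinases and restrains them. It had 18.5, 22.4 and 20.9 CPM in HepKO, against 3.65, 3.23 and 3.07 CPM in WT. The libraries of each group lay close together and far from the other group. The means were 20.6 ± 1.97 CPM in HepKO and 3.32 ± 0.297 CPM in WT (SD, n = 3 each), a 6.21-fold rise (log2 fold change 2.63 ± 0.14, adjusted p = 6.98e-05, edgeR). Amotl2 (chromosome 9, 102716672 to 102733418, plus strand) encodes an angiomotin-like protein of cell junctions that binds YAP and holds it out of the nucleus. It had 22.8, 26.3 and 24.4 CPM in HepKO, against 38.1, 37.6 and 42.9 CPM in WT. All HepKO libraries were below all WT libraries. The log2 fold change was -0.69 ± 0.10 (adjusted p = 0.00170, edgeR), while on library totals it was -0.18 with no call (adjusted p = 0.175). Of the relatives of Amotl2, Amot was called higher (log2 fold change 1.01 ± 0.24, adjusted p = 0.0130, edgeR) and Amotl1 was not called (0.28).

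The matricellular genes Ccn1 and Ccn2, whose secreted proteins bind integrins and are common readouts of YAP activity, differed from each other. Ccn1 (Cyr61; chromosome 3, 145646976 to 145649981, minus strand) had 49.5, 34.5 and 33.1 CPM in HepKO, against 9.09, 11.5 and 8.81 CPM in WT. Its groups were far apart, with HepKO replicate 1 the highest library. The means were 39 ± 9.07 CPM in HepKO and 9.81 ± 1.5 CPM in WT (SD, n = 3 each), a 3.97-fold rise (log2 fold change 1.99 ± 0.19, adjusted p = 3.07e-04, edgeR). Ccn2 (Ctgf; chromosome 10, 24595442 to 24598683, plus strand) had 9.37, 10.5 and 5.16 CPM in HepKO, against 7.67, 11.9 and 6.59 CPM in WT. The groups overlapped, and the spread within each group was wide. The log2 fold change of Ccn2 was -0.06 ± 0.31, with a 95% interval of -0.78 to 0.66 and an adjusted p of 0.898 (edgeR), so its interval lay below that of Ccn1 (1.56 to 2.43). The ratio of Ccn1 to Ccn2 counts within a library, which needs no scaling, was 5.28, 3.27 and 6.41 in HepKO and 1.19, 0.967 and 1.34 in WT. Its groups did not overlap, and the exact 2-sided permutation p was 0.1, the smallest that 3 libraries against 3 allow (0.122 after Benjamini-Hochberg adjustment over 11 ratios).

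The remaining target genes were higher in HepKO. Crim1 (chromosome 17, 78200248 to 78376592, plus strand), which encodes a transmembrane protein that binds bone morphogenetic proteins, had 47.4, 55.9 and 48.2 CPM in HepKO, against 14.2, 24 and 20.8 CPM in WT. The groups did not overlap, and the 2.57-fold rise passed the test (log2 fold change 1.36 ± 0.19, adjusted p = 0.00125, edgeR). The end of Crim1 overlaps the antisense gene Fez2, which had 2396 to 3342 counts in HepKO and 1028 to 1621 in WT, and the strand setting of the counting is not given, so reads of the shared stretch could not be told apart.

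Ankrd1 was nearly silent in WT livers. The gene (chromosome 19, 36111961 to 36120099, minus strand) encodes an ankyrin-repeat protein first known from heart muscle. It had 80, 221 and 66 counts in HepKO replicates 1 to 3, against 0, 5 and 6 counts in WT replicates 1 to 3. These counts corresponded to 1.38, 4.93 and 1.68 CPM in HepKO and 0, 0.139 and 0.176 CPM in WT. Every HepKO library was above every WT library, with HepKO replicate 2 far above the other two. The log2 fold change was 4.57 ± 0.85 (adjusted p = 0.00451, edgeR), a fold that rests on 11 WT counts in all, and it was 3.77 without HepKO replicate 2 (adjusted p = 0.0176). HepKO replicate 2 also had the highest summed level of cholangiocyte markers, and the highest level of all but Prom1, which had 24.9, 5.6 and 3.43 CPM in HepKO and 0.811, 1.25 and 1.38 CPM in WT. Epcam had 2.05, 12.1 and 2.18 CPM in HepKO and 0.473, 1.11 and 1.58 CPM in WT, and Krt19 had 0.792, 5.15 and 0.203 CPM in HepKO and 0.574, 0.78 and 0.673 CPM in WT. Of the 10 cholangiocyte markers 9 were tested. Beside 19.5% higher and 18.7% lower over all tested genes, 5 of these markers were higher in HepKO and 0 lower. Their summed level was 177 to 572 CPM in HepKO and 55.1 to 72.2 CPM in WT, most of it from Spp1, which had 134 to 515 CPM in HepKO and 35.2 to 54.4 CPM in WT. Cldn4 was at 0 in WT replicates 1 and 3 and Cftr in WT replicate 1, and both genes passed the filter only through the HepKO libraries. The part of bile duct cells in the Ankrd1 result was not tested.

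Axl, a receptor tyrosine kinase that macrophages as well as stellate and endothelial cells carry, rose together with macrophage markers. The gene (chromosome 7, 25757273 to 25788705, minus strand) had 72.7, 53.6 and 75.8 CPM in HepKO, against 13.9, 27 and 14.6 CPM in WT. The groups did not overlap, and the 3.63-fold rise passed the test (log2 fold change 1.86 ± 0.27, adjusted p = 0.00152, edgeR). HepKO replicate 2 was the lowest HepKO library and WT replicate 2 the highest WT library. The 10 macrophage markers summed to 1211, 870 and 1226 CPM in HepKO and 286, 493 and 293 CPM in WT, again lowest in replicate 2 of HepKO and highest in replicate 2 of WT. Among these 10 markers 9 were called higher in HepKO, beside 19.5% of all tested genes. No macrophage marker was at 0 in any library. Within a library the ratio of Axl to the summed markers was 0.0600, 0.0616 and 0.0618 in HepKO and 0.0487, 0.0548 and 0.05 in WT, a mean ratio of 1.19 between the groups (exact permutation p = 0.1, the smallest possible; 0.122 adjusted). The part of macrophages in the Axl result was not tested.

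**Figure D3:**
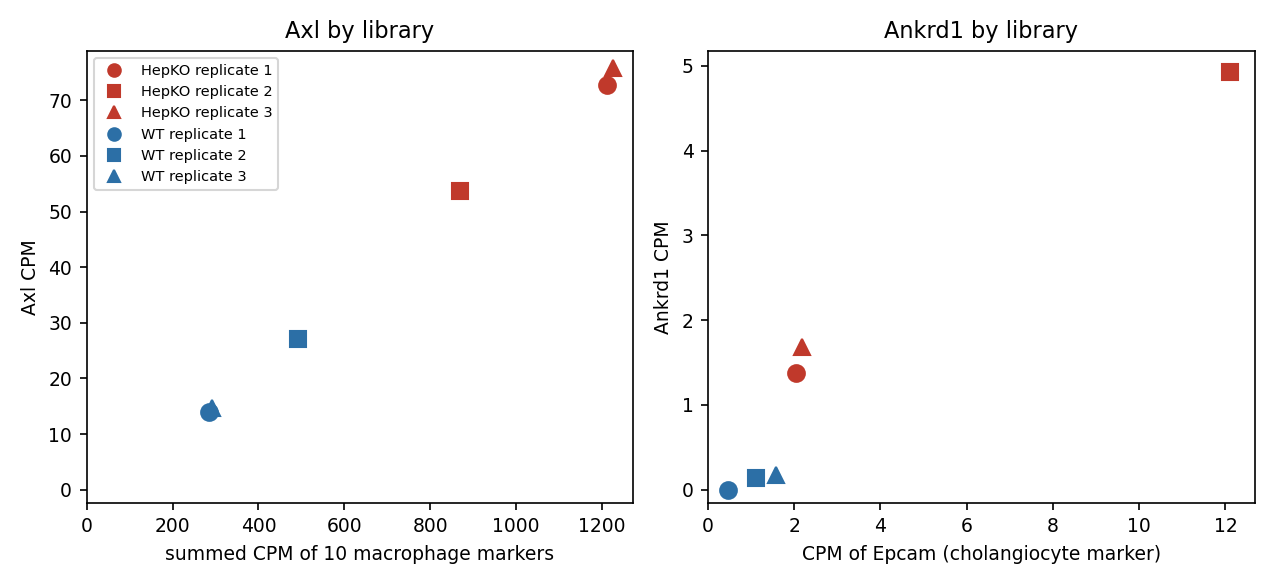
Axl level against the summed level of 10 macrophage markers (left) and Ankrd1 level against the level of Epcam (right), all in CPM on TMM-scaled totals, with 1 point per library (red HepKO, blue WT, shapes for replicate numbers). Axl and the macrophage sum are both higher in the 3 HepKO libraries, and HepKO replicate 2 has the highest values of both Ankrd1 and Epcam.

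Of 12 stellate cell and fibroblast markers, 5 were higher in HepKO and 0 lower (summed level 621 to 703 CPM in HepKO and 332 to 458 CPM in WT; median log2 fold change 0.64), including the collagens Col1a1 (log2 fold change 2.81) and Col3a1 (2.55), while Reln, Lrat, Colec11 and Des were not called. Over all tested genes 19.5% were called higher and 18.7% lower. Of 10 endothelial markers 1 was higher and 0 lower (179 to 229 CPM in HepKO and 163 to 201 CPM in WT). Of 5 mesothelial markers 4 were tested, with 0 higher and 1 lower, and their sum stayed at 1.65 to 3.92 CPM in HepKO and 1.52 to 4.12 CPM in WT. No stellate or endothelial marker was at 0 in any library, and Upk3b was at 0 in HepKO replicates 2 and 3 and Lrrn4 in HepKO replicate 2. The part of these cell types in the results for Ccn1, Crim1 and Tead1 was not tested.

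**Figure D4:**
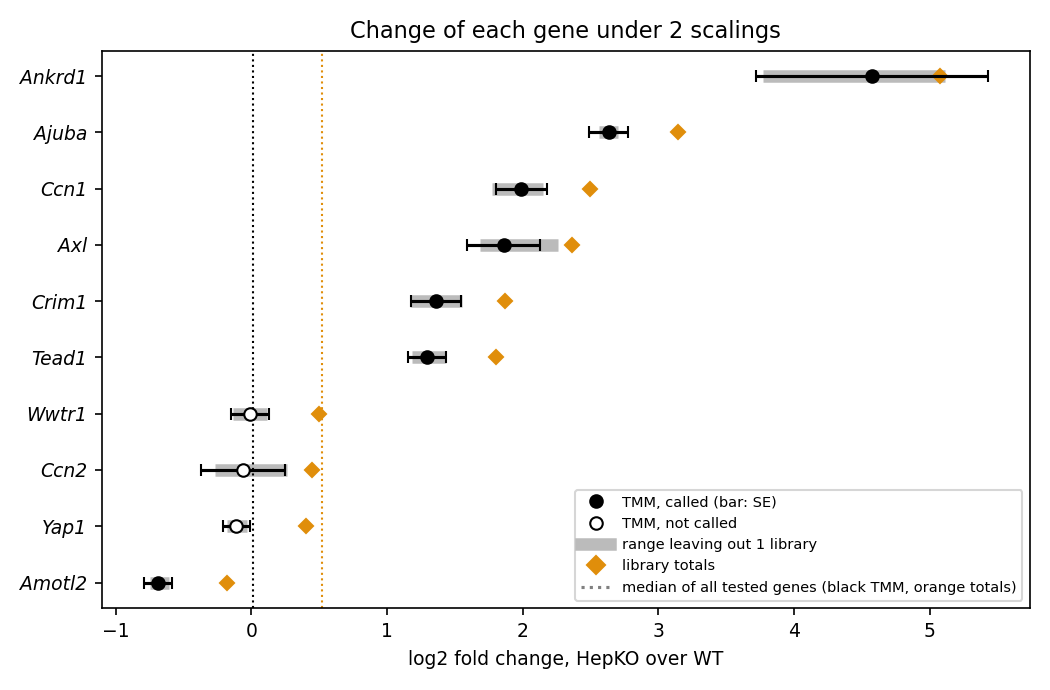
Log2 fold change (x axis, HepKO over WT) of each of the 10 genes under TMM scaling (circles with SE, filled where called), the range over the fits that each leave out 1 library (grey bars), and the value on library totals (diamonds). Ankrd1, Ajuba, Ccn1, Axl, Crim1 and Tead1 lie above the median of all tested genes under both scalings (dotted lines at 0.01 and 0.52), and Amotl2 lies below both.

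Relative to Yap1 itself the 7 called genes kept their directions. Yap1 changed little under TMM (log2 fold change -0.11), so these ratios largely repeat the TMM result and are not a separate test of it. The share of all genes whose ratio to Yap1 did not overlap was not computed, and under TMM 53.5% of all tested genes did not overlap. Per read of Yap1 in the same library, Ajuba had 0.288, 0.310 and 0.331 reads in HepKO and 0.0525, 0.0473 and 0.0394 reads in WT. Tead1 had 0.508, 0.522 and 0.462 reads in HepKO and 0.186, 0.228 and 0.155 reads in WT, and Amotl2 had 0.355, 0.363 and 0.388 reads in HepKO and 0.548, 0.550 and 0.550 reads in WT. None of these ratios overlapped between the groups, nor did those of Ccn1, Crim1, Ankrd1 and Axl, each with the smallest exact permutation p of 0.1 (0.122 adjusted over 11 ratios). The ratios of Wwtr1 (exact p = 0.7) and Ccn2 (exact p = 1) to Yap1 overlapped, and their signs turned to log2 differences of 0.09 and 0.03.

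The order of the levels per length of transcript also differed between the groups. In RPKM, the CPM of a gene divided by the kilobases of its annotated exons, Ccn1 was the highest of the 10 in HepKO at 19.3 ± 4.49, followed by Axl at 13.4 ± 2.39, Wwtr1 at 8.92 ± 1.57, Crim1 at 8.43 ± 0.781, Yap1 at 7.19 ± 0.551 and Ajuba at 5.65 ± 0.541 (SD, n = 3). Amotl2, Ccn2, Tead1 and Ankrd1 came below these. The HepKO range of Wwtr1 overlapped those of Crim1 and Yap1, and that of Ccn2 overlapped those of Amotl2 and Tead1. In WT the coactivators came first, Wwtr1 at 8.99 ± 0.579 and Yap1 at 7.78 ± 0.568 RPKM with overlapping ranges, then Amotl2 at 6.29 ± 0.466 and Ccn1 at 4.86 ± 0.742. Axl, Crim1 and Ccn2 followed at 3.05 to 3.68 RPKM, and from Ccn1 to Ccn2 each range overlapped that of the next gene. Tead1 at 0.997 ± 0.135 and Ajuba at 0.910 ± 0.0815 came below these with ranges that overlapped each other, and then Ankrd1 at 0.0364 ± 0.0321. Ankrd1 was the lowest in both groups.

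The wider set of target genes was followed in a published conserved signature of YAP/TAZ targets, less the genes already described. Of its 16 genes 14 were tested, 7 rose and 0 fell, beside 19.5% higher and 18.7% lower over all tested genes, and the median log2 fold change was 0.71, beside 0.01. On library totals 11 were higher and 0 lower, where 46.4% of all tested genes were higher. At an unadjusted p under 0.05 there were 8 higher and 0 lower, with DESeq2 8 and 0 and with limma-voom 7 and 0. Ccdc80, a matrix protein, had 43.7, 29.2 and 31.1 CPM in HepKO and 11.1, 13.5 and 9.78 CPM in WT (log2 fold change 1.59 ± 0.19, adjusted p = 7.08e-04, edgeR). Nt5e, the ectoenzyme CD73 that makes adenosine, had 158, 52.5 and 65.4 CPM in HepKO and 6.79, 9.33 and 5.47 CPM in WT. Its groups were far apart (log2 fold change 3.68 ± 0.45, adjusted p = 7.67e-04, edgeR), and without HepKO replicate 1, the library that stood apart by its sex-linked genes, the value was 3.02. Tgfb2, a ligand of the TGF-beta receptors, had 6.65, 15.2 and 6.78 CPM in HepKO and 0.101, 0.696 and 0.439 CPM in WT (log2 fold change 4.49 ± 0.59, adjusted p = 0.00103, edgeR). With 3 counts in WT replicate 1, Tgfb2 needed the HepKO libraries, where it was high, to pass the filter on low counts. It is among the 7 genes that rose. Over the fits that each left out 1 library, its value was 3.98 to 5.11, the highest without WT replicate 2. The signature genes Asap1, Myof, Ptpn14 and Rbms3 were also called higher, while Arhgef17, Dock5, F3, Gadd45a, Igfbp3, Lats2 and Nuak2 were not called.

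Of 6 genes reported as YAP targets in liver, 5 were tested, 2 rose and 0 fell (median log2 fold change 1.17), beside 19.5% higher and 18.7% lower over all tested genes. Taking both directions together, the share called was near the 38.2% over all tested genes. The count of higher genes was 5 on library totals, where 46.4% of all tested genes were higher. That count was 4 with no filter on low counts and 1 at an adjusted p under 0.01. At an unadjusted p under 0.05 there were 3 higher and 0 lower, with DESeq2 3 and 0 and with limma-voom 2 and 0. Birc5, an inhibitor of apoptosis that is also a mitosis gene, had 10.4, 4.55 and 6 CPM in HepKO and 1.69, 1.53 and 1.61 CPM in WT (log2 fold change 2.11 ± 0.33, adjusted p = 0.00208, edgeR). Sox9, a transcription factor of bile duct cells, had 9.68, 23.8 and 16.5 CPM in HepKO and 7.16, 4.71 and 2.75 CPM in WT (log2 fold change 1.77 ± 0.41, adjusted p = 0.0109, edgeR). Jag1, a Notch ligand, had 6.47, 17 and 10.3 CPM in HepKO and 6.35, 6.21 and 5.39 CPM in WT (log2 fold change 0.91 ± 0.32, adjusted p = 0.0558, edgeR), and it was called without HepKO replicate 1 (log2 fold change 1.19, adjusted p = 0.00820). Over the fits that each left out 1 library, its log2 fold change was 0.48 to 1.19, with an adjusted p of up to 0.180 (edgeR). Sox9 and Jag1 were highest in HepKO replicate 2, the library with the most Epcam and Krt19. Notch2, the Notch receptor, and Myc were not called.

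Upstream of YAP, the genes of the Hippo cascade went both ways. Of 23 genes 22 were tested, 10 rose and 4 fell, beside 19.5% higher and 18.7% lower over all tested genes, with a median log2 fold change of 0.27. On library totals 16 were higher and 0 lower, where 46.4% of all tested genes were higher. Under TMM the count of higher genes was 5 without HepKO replicate 2, 6 without HepKO replicate 3 and 5 without WT replicate 3. Map4k4, a kinase that can act on LATS beside the core Hippo kinases, had 40.4, 33.7 and 37.3 CPM in HepKO and 7.3, 10.2 and 7.55 CPM in WT (log2 fold change 2.15 ± 0.15, adjusted p = 1.34e-04, edgeR). The protocadherin Fat1 had 77.9, 118 and 112 CPM in HepKO and 46.5, 52.5 and 45 CPM in WT (log2 fold change 1.09 ± 0.16, adjusted p = 0.00169, edgeR). The scaffold Frmd6 had 15, 15.2 and 13.6 CPM in HepKO and 7.37, 8.47 and 5.94 CPM in WT (log2 fold change 1.01 ± 0.16, adjusted p = 0.00218, edgeR). The genes that fell under TMM were Nf2, which encodes the membrane scaffold merlin, the kinases Taok2 and Taok3, and Limd1, a LIM protein related to Ajuba. Wtip, another LIM protein related to Ajuba, was called higher (log2 fold change 1.44 ± 0.35, adjusted p = 0.0133, edgeR). Among the core components, the kinase Stk4, its partner Sav1 and the LATS cofactor Mob1a were called higher with log2 fold changes of 0.27 to 0.36. The kinases Stk3 and Lats2 and the related cofactor Mob1b (log2 fold change 0.03) were not called. At an adjusted p under 0.01 (edgeR) the list kept 3 genes higher and 2 lower, and Stk4, Sav1 and Mob1a lost their calls. Lats1 had 1 count over all libraries, too few to test, and that low count does not show that the gene is silent. Lats2 and Ptpn14 belong to the signature list as well.

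**Figure D5:**
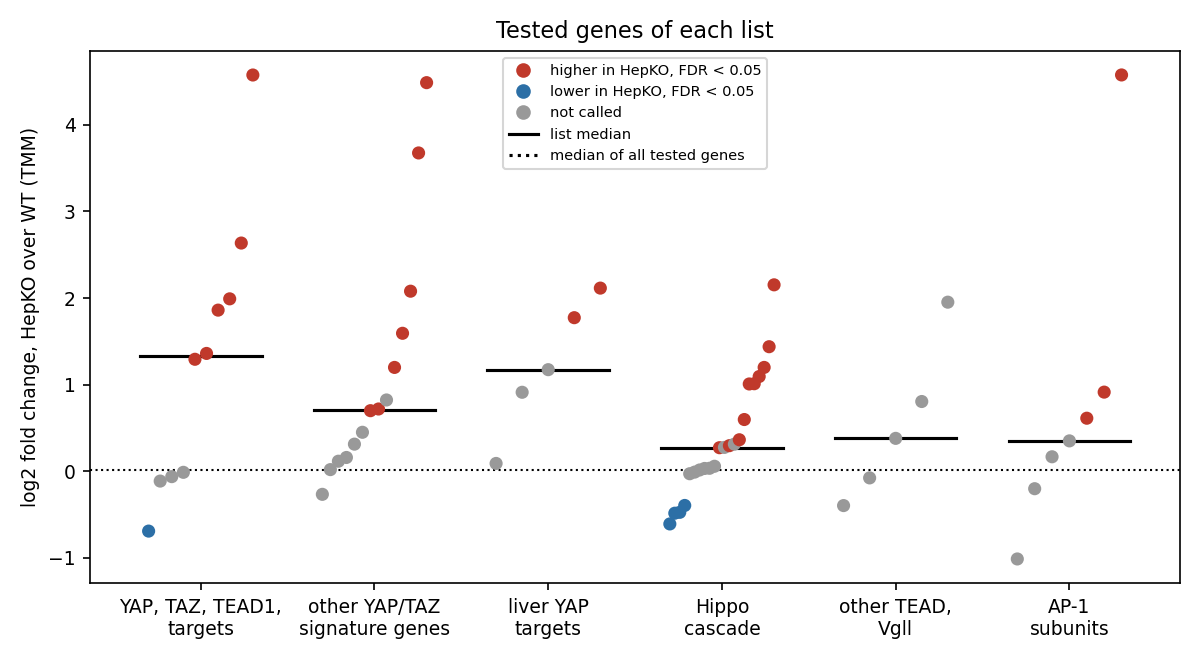
Log2 fold change (y axis, HepKO over WT, TMM scaling) of each tested gene in the lists of the pathway, coloured by call, with the list median as a bar and the median of all tested genes as a dotted line. The list medians are 1.33 for the 10 genes, 0.71 for the signature, 1.17 for the liver targets, 0.27 for the Hippo cascade, 0.38 for other TEAD and Vgll genes and 0.35 for AP-1 subunits.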

How the data were processed

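The authors deposited unnormalized read counts per Ensembl gene. The tools listed in the submitters' processing notes are STAR 2.7.11a, featureCounts (Subread 2.0.0), bcl2fastq and edgeR 3.40.2, and the build is mm10; their roles and order are not stated there. Per the labels' protocols, a stranded mRNA kit made the libraries. Which gene annotation and strand option the counting used is not given here. Of 56350 IDs, 55480 matched GENCODE M21 (GRCm38) symbols.

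HepKO was compared with WT with edgeR 4.0.16 in R 4.3.3: filterByExpr, TMM factors, quasi-likelihood test without covariates, Benjamini-Hochberg adjustment over 16051 genes. The fit was tried on simulated counts in which few genes changed, by known folds in both directions. That trial does not test the scaling where many genes change, as here. SE is the size of the log2 fold change over the square root of F. DESeq2 1.42.0 and limma 3.58.1 (voom) were alternatives, with other scalings, filters and thresholds and each library left out. No 2 libraries of a group were duplicates (chi-square over its degrees of freedom, 24.2 to 117). Ratios to Yap1, to Ccn2 and to macrophage markers were added after the data were seen. The 10 genes and all lists were chosen with earlier results of these data known. Named by rule were the 10 genes, Atg14, the 3 tested genes of each pathway list with the smallest p and the 5 genes most correlated with Yap1. Other genes were named after their values were seen.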

Additional observations from a re-analysis of the deposited data

How the results depend on the processing

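The 10 genes gave 168 values under the alternatives, of which 164 counted as the same. In the refits this meant that a gene kept its direction and its side of the threshold or, where not called, stayed so. The values relative to Yap1 within a library had no adjusted p from a fit. They were held to no threshold and judged by direction alone, and only for called genes. On library totals Yap1 (log2 fold change 0.40, adjusted p = 0.0108) and Wwtr1 (0.50, adjusted p = 0.0213) turned to a call as higher, and Amotl2 (-0.18, adjusted p = 0.175) lost its call, which left 0 of the 10 genes lower. This follows from the construction: the median of all tested genes was 0.52 on that scale, with 7442 genes called higher and 937 lower, against 3125 and 3006 under TMM. A required log2 fold change of at least 1 left 2063 genes higher and 922 lower and removed Amotl2 (-0.69), again leaving 0 lower. An adjusted p under 0.01 left 1751 higher and 1693 lower, with the 6 and 1 calls among the 10 genes unchanged. Those 6 and 1 calls were also found without each library in turn, with DESeq2 and with limma-voom. With the length of the longest transcript in place of all exons, 7 of the 10 genes kept their rank of level per length in HepKO and 6 in WT. Yap1 then came before Wwtr1 in both groups. The equal replicate numbers were not taken as a pairing. Same-numbered libraries deviated from their group means with correlations of -0.125, -0.0684 and 0.0015, where differently numbered libraries gave -0.125 to 0.180. With so few libraries these values cannot exclude a pairing. With the replicate number as a block 2569 genes were higher and 2502 lower, with 6 and 1 among the 10 genes. Depth limits Ankrd1, with 11 counts over the WT libraries, and Tead2 and Vgll3.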

Other observations

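AP-1 factors, which are known to share enhancers with TEAD, were followed as 7 subunit genes, of which 3 rose and 0 fell (median log2 fold change 0.35). Over all tested genes 19.5% were higher and 18.7% lower, and the share called in both directions together was near the 38.2% over all tested genes. At an unadjusted p under 0.05, and with DESeq2 and limma-voom, the counts were 3 and 0 as well. Fosl1 had 130, 52 and 48 counts in HepKO replicates 1 to 3, against 5, 1 and 0 counts in WT replicates 1 to 3 (log2 fold change 4.58 ± 0.86, adjusted p = 0.00478, edgeR). It passed the filter on low counts only through the HepKO libraries. Without WT replicate 1 the WT group held 1 count, and the ratio of HepKO to WT was 113 (95% counting interval 20.1 to 4492, which covers counting error only). Fosl2 had 19.5, 16.1 and 16.3 CPM in HepKO and 10.9, 12.5 and 10.6 CPM in WT (log2 fold change 0.61 ± 0.13, adjusted p = 0.00826, edgeR). Junb had 23.3, 21.8 and 29.5 CPM in HepKO and 19.4, 10.2 and 10 CPM in WT (log2 fold change 0.91 ± 0.26, adjusted p = 0.0279, edgeR), and it was not called without HepKO replicate 3 (adjusted p = 0.0924), WT replicate 2 (0.0680) or WT replicate 3 (0.0731). Fos, Fosb, Jun and Jund were not called.

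The 5 protein-coding genes of at least 5 CPM whose log2 CPM followed that of Yap1 most closely over the 6 libraries were Prpf4 (Pearson's r = 0.993), Slx1b (0.969), Uros (0.958), Ppm1m (0.957) and Oxsr1 (0.953), among 9473 genes ranked. These values describe 6 libraries that share depth and scaling.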
